A study of Mus musculus with 9 samples.

Results

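The granins and prohormone processing enzymes examined here are 10 genes of the regulated secretory pathway: Chga, Chgb, Vgf, Scg2, Scg3, Scg5, Cpe, Pcsk1, Pcsk2 and Pcsk1n. They were taken by symbol from a table of 24487 rows, and each symbol matched 1 row. RNA sequencing had been run on 5 libraries of whole midbrain and 4 libraries of midbrain dopaminergic neurons from C57BL/6 mice. The labels give no age, sex, treatment, transgene or isolation method, and the table's title uses the term bacTRAP, the usual name for the capture of tagged ribosomes from 1 cell type. If ribosomes were captured, ribosome-bound RNA of 1 cell type is compared with total RNA of the tissue, and isolation and cell type cannot be told apart.

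Neurons and endocrine cells store peptides in dense-core vesicles, which bud from the trans-Golgi network and release their content on stimulation. Granins are acidic proteins that condense in these vesicles and are themselves cut into peptides. Prohormone convertases cut precursors after pairs of basic residues, carboxypeptidase E then trims the exposed basic residues, and small granin-like proteins hold the convertases in check. In the midbrain, dopaminergic neurons load dopamine into vesicles through Slc18a2, and many of them also make a peptide such as cholecystokinin.

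Several of these genes are known targets of factors that bind the cyclic AMP response element, whose letters are TGACGTCA, so the 250 bases before each start site were searched on both strands. RefSeq windows of GRCm38.p6, the assembly that mm10 names, were found for 8 of the 10 genes. TGACGTCA was present in 3 of the 8, those of Scg2, Chgb and Pcsk1, against 1.55 percent of 32851 windows of all genes. The shorter letters TGACG or CGTCA, which the longer motif contains, were present in 7 of the 8 against 17.8 percent of all windows, and Pcsk1n had neither. The matches began 68, 72 and 78 bases before the start in Scg2, Chgb and Pcsk1. In Chga, TGACG began 44 bases before the start. The stretches of these 4 genes are shown because their genes differ in what the libraries show. Capitals mark the match. They lie at chr1:79440076-79440105 (minus strand), chr2:132781559-132781588 (plus), chr13:75089768-75089797 (plus) and chr12:102554885-102554914 (plus), and the Chgb stretch also falls within an annotated GENCODE exon of that gene. The deposited span of Scg2 ends at 79440090, within its stretch, and that of Chgb starts at 132781278, before its stretch. The distances given thus hold for the RefSeq starts only.
Scg2: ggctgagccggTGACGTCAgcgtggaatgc
Chgb: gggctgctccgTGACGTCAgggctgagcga
Pcsk1: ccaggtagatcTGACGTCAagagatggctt
Chga: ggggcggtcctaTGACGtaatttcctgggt
These letters are a description of the windows and do not show that a factor binds there.

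Levels are given in FPKM, that is fragments per kilobase of transcript and per unit of library depth. From the smallest steps between values of short receptor genes, depth was about 16200000 to 33500000 reads in the whole midbrain libraries and 47200000 to 62500000 in the dopaminergic ones. At those depths the least covered gene, Vgf, rested on about 420 reads in its lowest library and Pcsk1 on about 540, and each of the others on at least 1100. Th, tyrosine hydroxylase, an enzyme of dopamine synthesis, reached 1619 ± 121 FPKM (SD, n = 4) in the dopaminergic libraries, where whole midbrain had 47.2 ± 2.84 (SD, n = 5). Whole midbrain library 2 stood apart from its group: across genes its log2 values correlated at 0.903 to 0.906 with the other 4, which correlated at 0.947 to 0.962 with one another. Its level was at least 1 log2 unit above the mean of the other 4 for 7.54 percent of genes, and for 4 of the 10 genes described here, Chga, Vgf, Cpe and Pcsk1n. Results are therefore given with and without it. Separate animals are not named in the labels, and p-values here measure no more than spread among libraries, which may be technical.

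The genes of this pathway did not move as a block. Chga, Chgb, Vgf, Scg3 and Cpe fell in dopaminergic neurons, each at least 2.71-fold by the ratio of means (at least 2.05-fold without whole midbrain library 2), and Pcsk2 fell by a smaller step. Pcsk1 and Pcsk1n rose, while Scg2 and Scg5 did not pass the test and stayed among the more abundant transcripts of both groups. Thus 2 of the 10 rose, 6 fell and 2 were not called, where of all 13106 genes tested 38.3 percent were called higher, 36 percent lower and 25.8 percent not (limma, Benjamini-Hochberg adjusted p under 0.05). The falls of at least 2-fold numbered 5 of 10 against 21.4 percent of all genes, and the rises of that size 1 of 10 against 17 percent. Without whole midbrain library 2, 3 rose, with Scg2 added, 6 fell and 1 was not called, against 43.6, 38.4 and 18 percent of all genes. The 10 genes had a median log2 fold change of -0.81, against 0.04 over all genes tested. Log2 fold changes were computed after adding 1 FPKM, so changes of weakly expressed genes are understated. All 10 passed the minimum mean of 1 FPKM.

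**Figure D1:**
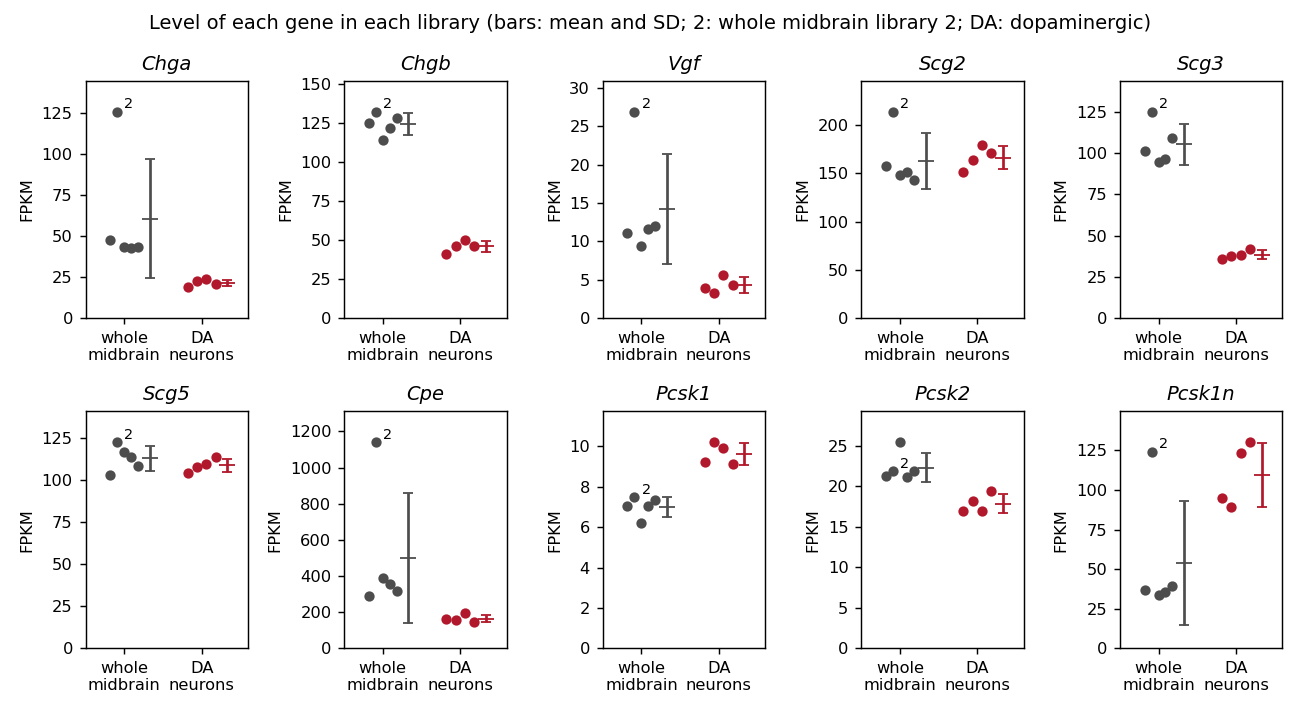
FPKM of each gene (vertical axis from 0) in each whole midbrain library (grey, n = 5) and dopaminergic library (red, n = 4), with the mean and SD beside the points and whole midbrain library 2 marked 2. Chgb and Scg3 separate the groups clearly, Scg2 and Scg5 overlap, and library 2 stands far above its group for Chga, Vgf, Cpe and Pcsk1n.

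Among the granins, Chgb, chromogranin B (chromosome 2, 132781278 to 132795072, mm10), was at 125, 132, 114, 121 and 128 FPKM in whole midbrain libraries 1 to 5. In dopaminergic libraries 1 to 4 it was at 41.3, 46.0, 50.1 and 46.1 FPKM. The groups were far apart and each was tight, with means of 124 ± 6.75 and 45.9 ± 3.60. Chgb was thus 2.71-fold lower, with a log2 fold change of -1.42 (SE 0.08, limma adjusted p = 1.2e-07).

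Scg3, secretogranin III, which tethers other granins to the vesicle membrane (chromosome 9, 75643366 to 75684056), followed the same course. It stood at 101, 125, 94.8, 96.4 and 109 FPKM in whole midbrain and at 35.7, 37.6, 38.4 and 41.9 in dopaminergic neurons. No library of one group reached the other. The level was 2.74-fold lower, a log2 fold change of -1.43 (SE 0.10, limma adjusted p = 4.2e-07).

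Chga, chromogranin A (chromosome 12, 102554969 to 102565027), was at 47.7, 126, 43.7, 42.9 and 43.7 FPKM in whole midbrain. It was at 19.0, 22.5, 23.6 and 20.7 FPKM in dopaminergic neurons and the groups did not overlap. Whole midbrain library 2 was far above the other 4 libraries of its group. The log2 fold change was -1.32 (SE 0.29, limma adjusted p = 0.0021). Without that library it was -1.02 (SE 0.07, adjusted p = 1.4e-07), and the ratio of means 2.07-fold in place of 2.83-fold.

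Vgf, a granin-like precursor induced by neurotrophins and activity (chromosome 5, 137030295 to 137033351), was at 11.1, 26.8, 9.40, 11.7 and 11.96 FPKM in whole midbrain. It was the lowest of the 10 in dopaminergic neurons, at 3.99, 3.25, 5.63 and 4.38 FPKM. All dopaminergic values lay below all whole midbrain values. Its log2 fold change was -1.44 (SE 0.26, limma adjusted p = 0.00059), and -1.19 (adjusted p = 6.3e-06) without library 2.

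Scg2, secretogranin II and precursor of the peptide secretoneurin (chromosome 1, 79434669 to 79440090), stood at 158, 214, 149, 151 and 143 FPKM in whole midbrain. In dopaminergic neurons it was at 151, 164, 179 and 171 FPKM. The groups overlapped, and the log2 fold change was 0.04 with a 95 percent interval from -0.23 to 0.32 (limma adjusted p = 0.77). Without library 2 it was called slightly higher, by 0.14 (SE 0.06, adjusted p = 0.036).

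Scg5, the small chaperone and inhibitor of Pcsk2 (chromosome 2, 113776313 to 113829091), was at 103, 123, 117, 114 and 109 FPKM in whole midbrain and at 104, 108, 109.6 and 114 in dopaminergic neurons. The groups overlapped almost fully. The log2 fold change was -0.05, with a 95 percent interval from -0.22 to 0.12 (limma adjusted p = 0.54). After correction for exonic length it was called lower, at -0.45.

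Among the enzymes, Cpe, carboxypeptidase E (chromosome 8, 64592551 to 64693040), was the most abundant of the 10 in whole midbrain, at 292, 1140.3, 389, 356 and 318 FPKM. In dopaminergic neurons it was at 164, 156, 196 and 145 FPKM. The groups did not overlap, and library 2 held the extreme value of the whole midbrain group. The log2 fold change was -1.38 (SE 0.35, limma adjusted p = 0.0049), or -1.03 (SE 0.10, adjusted p = 3.7e-06) without library 2.

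Pcsk1, a prohormone convertase that starts the cutting of many precursors (chromosome 13, 75089987 to 75132498), was at 7.06, 7.47, 6.19, 7.03 and 7.33 FPKM in whole midbrain. It was at 9.23, 10.2, 9.92 and 9.12 FPKM in dopaminergic neurons, each above the highest whole midbrain library. The difference was small, 1.37-fold or 0.41 on the log2 scale (SE 0.07, limma adjusted p = 0.00061).

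Pcsk2, the convertase that often completes the cutting (chromosome 2, 143546133 to 143816282), went the other way. It was at 21.2, 21.9, 25.4, 21.1 and 21.9 FPKM in whole midbrain and at 17.0, 18.1, 16.9 and 19.5 in dopaminergic neurons. The groups did not overlap, and the log2 fold change was -0.30 (SE 0.08, limma adjusted p = 0.0051). The call ended after correction for exonic length (-0.10, adjusted p = 0.27), and 260 exonic bases are shared with the antisense gene Pcsk2os1.

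Pcsk1n, which encodes proSAAS, an inhibitor of Pcsk1 (chromosome X, 7919822 to 7924410), was at 36.9, 124, 33.5, 35.5 and 39.6 FPKM in whole midbrain. In dopaminergic neurons it was at 95.05, 89.1, 123 and 130.1 FPKM. Whole midbrain library 2 fell among the dopaminergic values, and the other 4 lay far below them. The log2 fold change was 1.20 (SE 0.35, limma adjusted p = 0.01), and 1.55 (SE 0.12, adjusted p = 3.1e-07) without library 2, which is 3.01-fold in place of 2.03-fold as a ratio of means. Its exons share 135 bases with Eras on the opposite strand.

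In all, dopaminergic libraries did not overlap whole midbrain for 7 of the 10 genes, 1 higher and 6 lower, where 32.6 percent of all genes were higher and 31.8 percent lower without overlap. In dopaminergic neurons the order of mean levels was Scg2 (166 FPKM), Cpe (165), Pcsk1n (109), Scg5 (109), Chgb (45.9), Scg3 (38.4), Chga (21.5), Pcsk2 (17.9), Pcsk1 (9.62) and Vgf (4.31). The neighbours Scg2 and Cpe, Pcsk1n and Scg5, Chgb and Scg3, and Chga and Pcsk2 overlapped between libraries. In whole midbrain Cpe led, at a mean of 499 ± 360 FPKM, followed by Scg2 (163), Chgb (124), Scg5 (113) and Scg3 (105). Chga (60.7), Pcsk1n (53.9), Pcsk2 (22.3), Vgf (14.2) and Pcsk1 (7.02) came after them. There, Cpe was above Scg2 and Scg2 above Chgb in every library, Chgb, Scg5 and Scg3 overlapped, and Chga, Pcsk1n and Vgf each reached the gene ranked above it through library 2 alone. By mean level, Cpe ranked 67th of the 13106 genes in whole midbrain, or 101st without library 2, and 535th in dopaminergic neurons. Chgb ranked 424th, or 400th without library 2, and 1747th. Pcsk1n ranked 1049th, or 1588th without library 2, and 778th.

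The scale of the libraries bears on these directions, because total FPKM over all rows was 309275 to 409130 per whole midbrain library but 506466 to 521822 per dopaminergic library. For TPM, small RNA and mitochondrial rows were left out of the sums and of the test, which left 12975 genes. Rescaling to TPM moved the median log2 fold change of all genes by -0.64. On that scale none of the 10 genes was called higher and 8 were called lower, where 15.9 percent of all genes were higher, 59.1 percent lower and 24.9 percent not called. As TPM, Pcsk1 stood at -0.24 (limma adjusted p = 0.068) and Pcsk1n at 0.51 (adjusted p = 0.10), while Scg2 and Scg5 were called lower at -0.66 and -0.75. Relative to the median of all genes as TPM, Pcsk1n stood at 1.11, Pcsk1 at 0.36, Scg2 at -0.06 and Scg5 at -0.16, and Chga, Chgb, Vgf, Scg3 and Cpe at -1.44 to -1.61. Under quantile normalization 1 of the 10 was called higher, Pcsk1, and 8 were called lower, against 38.1 percent of genes higher, 31.3 percent lower and 30.6 percent not called. Scg2 (-0.75) and Scg5 (-0.78) were among the 8, and Pcsk1n stood at 0.64 (limma adjusted p = 0.091). The fall of Chga, Chgb, Vgf, Scg3 and Cpe was called under every scaling run.

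**Figure D2:**
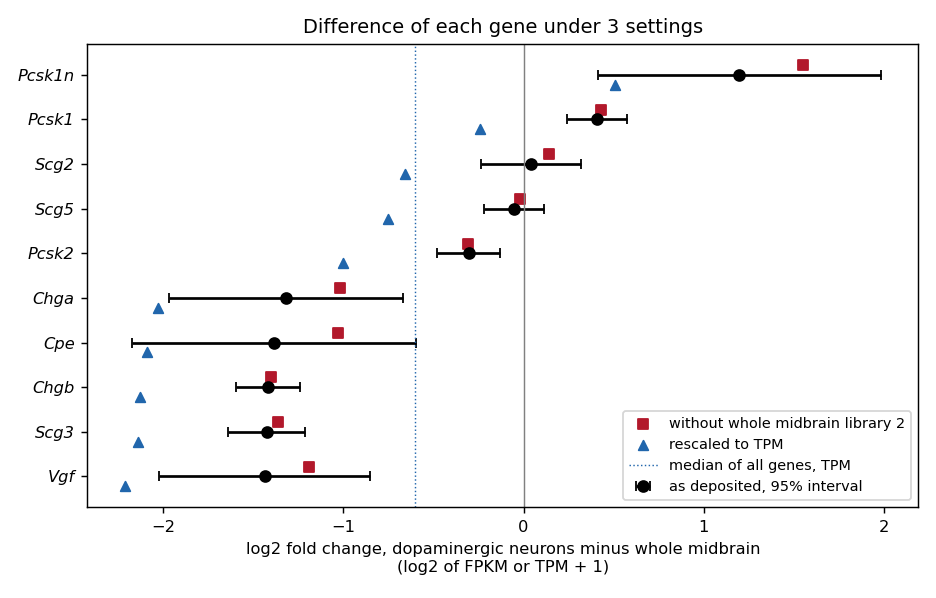
Log2 fold change of each gene, dopaminergic neurons minus whole midbrain (horizontal axis, log2 of the value + 1), as deposited with its 95 percent interval (black), without whole midbrain library 2 (red squares) and as TPM (blue triangles), with the TPM median of all genes dotted at -0.60. Vgf, Scg3, Chgb, Cpe and Chga lie below -1 under all 3, and Pcsk1 changes sign as TPM.

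FPKM ratios between genes of 1 library do not depend on its scale, and 4 are listed as such. They were compared with exact two-sided permutation tests over the 9 libraries and Benjamini-Hochberg adjustment over the 4. The log2 ratios tested had 1 FPKM added to each gene, so they are not wholly free of scale. The ratio of Pcsk1 to Pcsk2, the convertases, was 0.333, 0.342, 0.243, 0.333 and 0.335 in whole midbrain and 0.544, 0.563, 0.586 and 0.469 in dopaminergic neurons. Every dopaminergic library was higher, and the mean log2 ratio rose by 0.71 (exact permutation p = 0.00794, the smallest that 126 splits can give, adjusted p = 0.0317). With 0.1 or 5 FPKM added in place of 1, it rose by 0.77 or 0.54 (exact permutation, adjusted p = 0.0317 each). Pcsk2 was the higher of the pair in all 9 libraries. Without any 1 library other than whole midbrain library 2, the adjusted p of this ratio and of Scg5 to Pcsk2 was 0.0571 or 0.0714 (exact permutation). Without whole midbrain library 2 it was 0.0286 for all 4 ratios (exact permutation). Fewer splits remain whenever a library is left out, and the adjustment also depends on the p-values of the other ratios.

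The ratio of the chaperone Scg5 to its client Pcsk2 was 4.86, 5.60, 4.58, 5.40 and 4.97 in whole midbrain and 6.14, 5.94, 6.47 and 5.84 in dopaminergic neurons. It was higher in every dopaminergic library, by 0.25 on the log2 scale (exact permutation p = 0.0159, adjusted p = 0.0317). After correction for exonic length the difference turned to -0.34 (adjusted p = 0.0317), so its direction depends on how length is treated.

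The ratio of the inhibitor Pcsk1n to Pcsk1 was 5.23, 16.6, 5.40, 5.05 and 5.41 in whole midbrain and 10.3, 8.73, 12.4 and 14.3 in dopaminergic neurons. Whole midbrain library 2 was the highest of all 9, and the difference of 0.79 did not pass (exact permutation p = 0.0873, adjusted p = 0.116). Without that library the groups did not overlap, and the difference was 1.12 (exact permutation, adjusted p = 0.0286).

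The ratio of Chgb to Chga was 2.62, 1.05, 2.61, 2.83 and 2.94 in whole midbrain and 2.17, 2.05, 2.12 and 2.23 in dopaminergic neurons. The difference of -0.10 did not pass (exact permutation p = 0.873, adjusted p = 0.873). Without library 2 it was -0.38 (exact permutation, adjusted p = 0.0286), so both of these ratios rest on whether that library is counted.

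**Figure D3:**
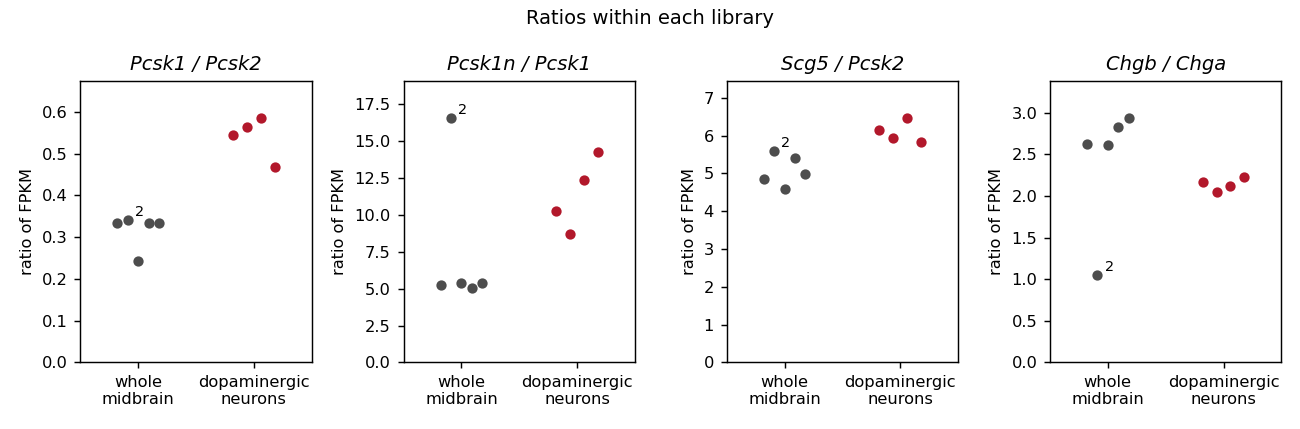
FPKM ratios of 4 gene pairs (vertical axes from 0) in each whole midbrain library (grey) and dopaminergic library (red), with whole midbrain library 2 marked 2. Pcsk1 to Pcsk2 and Scg5 to Pcsk2 are higher in all dopaminergic libraries, and library 2 lies outside its group for Pcsk1n to Pcsk1 and for Chgb to Chga.

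The mix of granin transcripts also differed. Of the summed FPKM of the 6 granins, Scg2 made up 28.9, 28.7, 28.2, 28.1 and 26.3 percent in whole midbrain and 42.6, 43.0, 44.1 and 43.0 percent in dopaminergic neurons. Scg5 made up 16.4 to 22.1 percent and 27.0 to 29.3 percent. Scg2 and Scg5 thus held most of the granin transcripts of every dopaminergic library. The share of Chgb went from 21.7 ± 2.33 percent (SD, n = 5) to 11.9 ± 0.36 (SD, n = 4), and that of Scg3 from 18.2 ± 1.18 to 9.97 ± 0.456. Chga made up 7.97 to 8.74 percent in 4 whole midbrain libraries, 16.9 percent in library 2 and 5.20 to 5.91 percent in dopaminergic neurons. The 6 granins together summed to 527 to 746 FPKM in whole midbrain and 356 to 406 in dopaminergic neurons. That was 0.169 to 0.182 percent of all FPKM in whole midbrain and 0.0702 to 0.0780 percent in dopaminergic neurons. All FPKM here includes the small RNA and mitochondrial rows left out for TPM, and this total was higher in the dopaminergic libraries. These shares are a description, with no test.

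**Figure D4:**
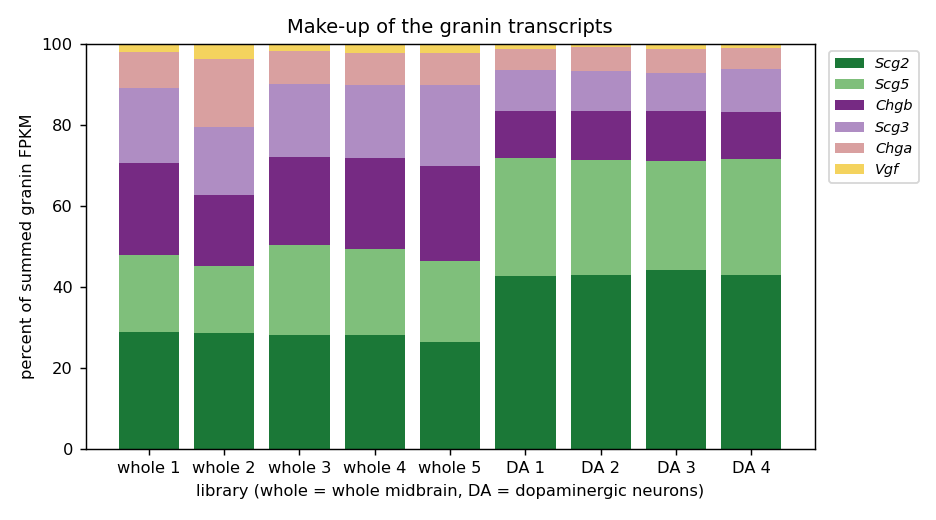
Percent of the summed granin FPKM (vertical axis) held by each of 6 granins in each whole midbrain (whole) and dopaminergic (DA) library. Scg2 and Scg5, the lower green segments, widen in the dopaminergic libraries, and Chga is widest in whole midbrain library 2, at 16.9 percent.

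In bulk RNA, fewer cells of a type and less RNA per cell cannot be told apart. Markers of other cells moved with the groups. For comparison, 38.3 percent of all genes tested were called higher and 36 percent lower, or 15.9 and 59.1 percent as TPM. All 8 dopaminergic markers rose (median 3.71), and 8 of 10 pan-neuronal genes rose and 1, Map2, fell, or 5 and 1 as TPM (median 1.10, summed level 7538 to 8294 FPKM in dopaminergic neurons and 2861 to 3645 in whole midbrain). All 7 GABAergic and glutamatergic markers fell, from a summed 419 to 438 FPKM to 84.1 to 96.3. Of 5 tested markers of serotonergic, noradrenergic and cholinergic neurons 4 fell, or 5 as TPM. The cholinergic marker Chat was not called, at -0.17. Summed over all 8 listed, the level was 55.1 to 118 FPKM in whole midbrain and 8.46 to 14.9 in dopaminergic neurons. The noradrenergic genes Dbh and Slc6a2 were listed at 0 in at least 1 dopaminergic library. Both were below the minimum mean and not tested, and 1 of the 8 listed genes was also at 0 in at least 1 whole midbrain library. All 40 markers of astrocytes, oligodendrocytes, microglia and vessels fell, with sums of 35.8 to 52.4, 168 to 284, 5.88 to 11.1 and 2.26 to 3.88 FPKM left. In whole midbrain those sums were 882 to 903, 2825 to 3331, 133 to 159 and 117 to 166 FPKM. Their part in the levels of the granins and enzymes was not tested.

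Among 15 other peptide processing enzymes tested, of 16 listed, 3 rose and 7 fell (median -0.17), or 0 and 11 as TPM. Over all genes tested, 38.3 percent rose and 36 percent fell, or 15.9 and 59.1 percent as TPM. Cpd, a carboxypeptidase of the trans-Golgi network, averaged 3.20 ± 0.378 FPKM in the dopaminergic group against 14.8 ± 1.14, a log2 fold change of -1.91 (limma adjusted p = 3.8e-08). Cpm, a carboxypeptidase of the cell surface, was at 1.44 ± 0.187 against 4.10 ± 0.730 FPKM (-1.05, adjusted p = 2.3e-05). Both carboxypeptidases thus fell, as Cpe did. Qpctl, a glutaminyl cyclase of the Golgi, rose by 0.45 (adjusted p = 0.022) and Pcsk4, a convertase known from germ cells, by 0.42 (adjusted p = 0.017). Neither rise was called as TPM (-0.16 for Qpctl and 0.07 for Pcsk4) or under upper-quartile scaling (0.25 and 0.29). That of Pcsk4 was also lost after correction for exonic length (0.26, limma adjusted p = 0.086) and for length and GC content (0.06, adjusted p = 0.61). For Qpctl library 2, at 8.38 FPKM, was above every dopaminergic library, and the call was also lost without whole midbrain library 3 (adjusted p = 0.051), whole midbrain library 5 (0.053) or dopaminergic library 3 (0.056). Pcsk4, counted among the 3 that rose, lay near the minimum mean of 1 FPKM. It was at 0.575 to 1.39 FPKM in whole midbrain, with a mean of 0.958, and at 1.36 to 1.77 in dopaminergic neurons. At a minimum mean of 5 FPKM it was not tested. For Pcsk4 library 2 was above the lowest dopaminergic library. Qpctl shares 471 exonic bases with Fbxo46 on the other strand.

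Of 15 tested genes of dense-core vesicle assembly, 9 rose and 5 fell (median 0.51), where 38.3 percent of all genes rose and 36 percent fell. As TPM 1 rose and 7 fell, where 15.9 percent of all genes rose and 59.1 percent fell. Pick1, a curved-membrane binding protein needed for vesicle budding, was at 17.9 ± 1.80 FPKM against 8.77 ± 0.840 (0.95, limma adjusted p = 6.1e-06), and shares 1222 exonic bases with Gm49486. Ptprn, a transmembrane protein of dense-core vesicles, was at 85.4 ± 8.66 against 48.7 ± 1.48 FPKM (0.79, adjusted p = 8.7e-06). As TPM it stood at 0.10 and under quantile normalization at 0.20, neither of them called. Sort1, the sorting receptor sortilin, was at 10.6 ± 0.345 against 26.9 ± 1.17 FPKM (-1.27, adjusted p = 5.6e-08). Dmxl2, a large vesicle-associated protein, fell by 0.66 (adjusted p = 5.6e-05).

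Of 8 tested genes of dense-core vesicle transport and release, 4 rose and 2 fell (median 0.13), or 2 and 5 as TPM. The shares over all genes were 38.3 percent higher and 36 percent lower, or 15.9 and 59.1 percent as TPM. Cadps2, a priming factor for dense-core vesicles, had the largest log2 fold change, with 1 FPKM added, of the tested genes in the 5 peptide pathway lists. It was at 11.9, 11.1, 14.4, 12.4 and 11.3 FPKM in whole midbrain and at 125, 113, 105 and 103 in dopaminergic neurons, 9.16-fold higher (3.10 on the log2 scale, SE 0.09, limma adjusted p = 3.0e-09). Rab27b, a small GTPase that docks secretory vesicles, was at 9.76 ± 0.449 against 4.62 ± 0.195 FPKM (0.94, adjusted p = 6.5e-07). Baiap3, which acts in the recycling of dense-core vesicle proteins, was at 3.24 ± 0.204 against 7.14 ± 1.87 FPKM (-0.92, adjusted p = 0.00019). Kif1a, the kinesin that carries these vesicles along axons, fell by 0.51 (adjusted p = 0.0017).

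Of 18 tested neuropeptide precursors, the substrates of these enzymes, 3 rose and 12 fell (median -1.23), or 2 and 13 as TPM. The shares over all genes were 38.3 percent higher and 36 percent lower, or 15.9 and 59.1 percent as TPM. Grp, the precursor of gastrin-releasing peptide, stood at 36.0 ± 2.91 FPKM against 5.08 ± 0.619 (log2 fold change 2.61, adjusted p = 8e-09). Cck, the cholecystokinin precursor, was 6.07-fold higher (2.60, adjusted p = 3.1e-07). Nts, the neurotensin precursor, was at 1.04 ± 0.480 against 9.80 ± 3.21 FPKM (-2.39, limma adjusted p = 5.1e-06). Sst, the somatostatin precursor, was at 60.4, 393, 52.3, 53.8 and 63.4 FPKM in whole midbrain and 8.45, 13.9, 21.3 and 28.3 in dopaminergic neurons. Library 2 again held the extreme value, and without it the ratio of means for Sst was 3.19-fold lower in place of 6.92-fold.

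**Figure D5:**
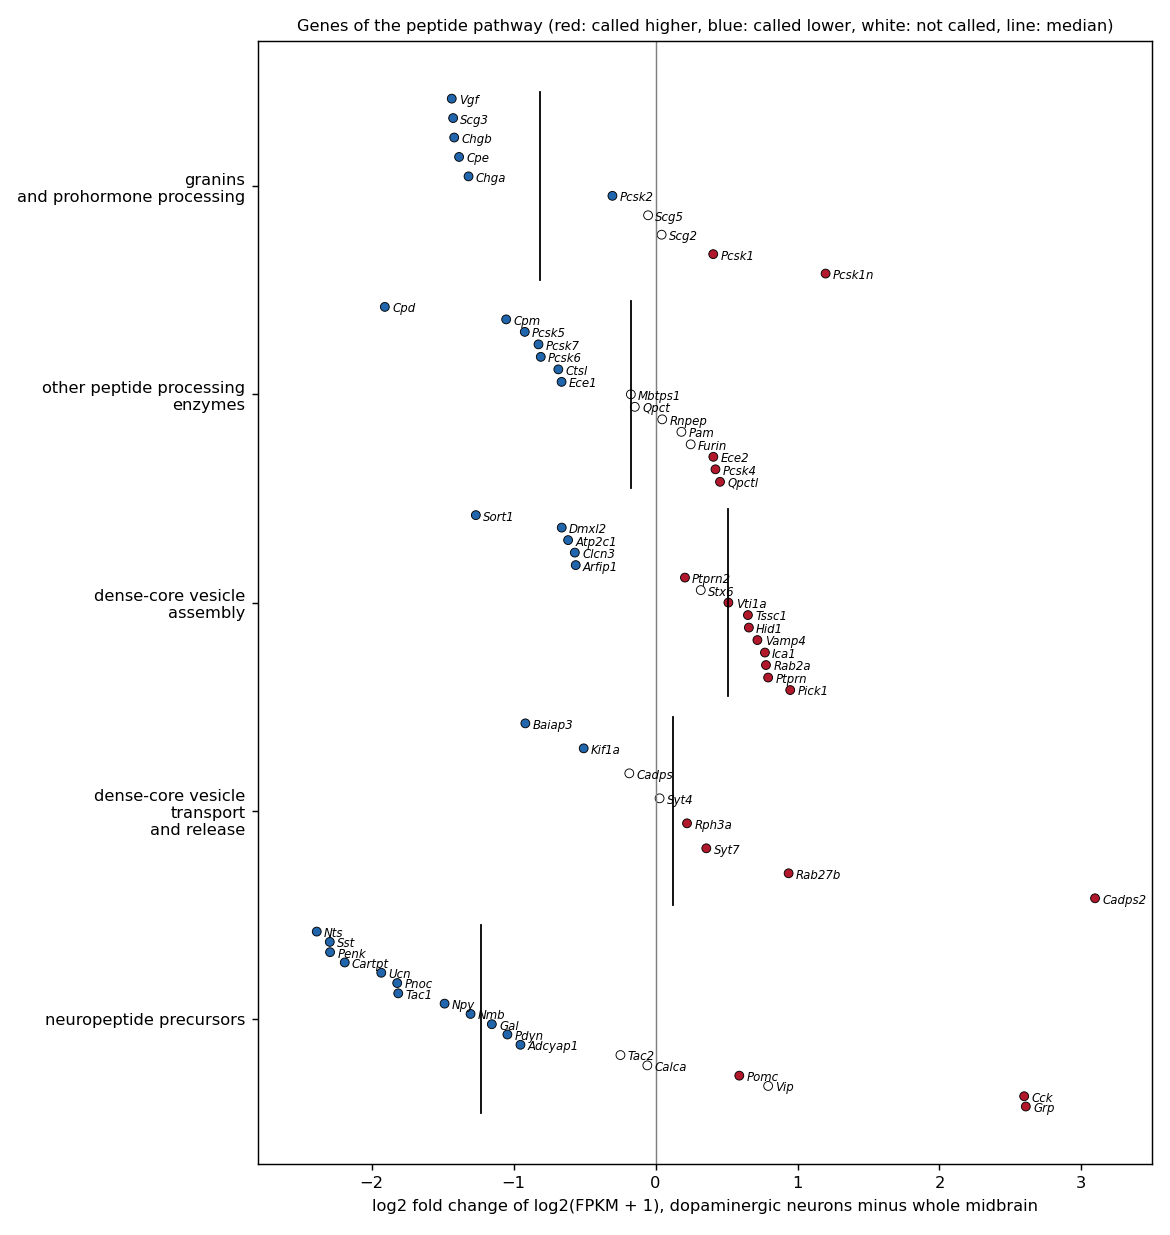
Log2 fold change of log2(FPKM + 1), dopaminergic neurons minus whole midbrain, of each tested gene in the granin and processing set and in 4 further lists of the peptide pathway, with red for called higher, blue for called lower, white for not called and a black line at each list's median. Cadps2, Grp and Cck stand farthest to the right, and most neuropeptide precursors lie to the left of 0. As TPM, 1 of 15 assembly genes rose and 7 fell in place of 9 and 5. Over all genes, 38.3 percent rose and 36 percent fell, or 15.9 and 59.1 percent as TPM.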

How the data were processed

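The deposited values are FPKM, which the authors made with TopHat2 2.0.8 and Cufflinks 2.1.1 on mm10, per the submitters' processing notes. No source used here gives the annotation, options or strand handling. Of the deposited FPKM of at least 1, 100 percent in the dopaminergic libraries and 0.7 percent in whole midbrain have at most 6 digits, a difference of handling that coincides with the groups.

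A linear model was fitted in limma 3.58.1 (R 4.3.3) to log2(FPKM + 1), with a mean-variance trend, two-sided tests and Benjamini-Hochberg adjustment over the 13106 genes that averaged 1 FPKM or more. No count model was used, since FPKM are not counts. On simulated data with 13106 genes, 200 of them changed, the fit recovered 86 percent of changes of 1 log2 unit and 99 percent of changes of 2. Of the genes called there, 5.61 percent were unchanged. The simulation had independent normal noise, no outlying library and no difference of scale, and far fewer changed genes than were called here. Its percentages therefore do not carry over to the deposited libraries. Depth was estimated from receptor genes spanning under 1500 bases, with fragments of 200 bases assumed. Exonic lengths came from GENCODE M21. Summaries used Python 3.11.15 and pandas 2.3.3, and figures matplotlib 3.10.9.

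The genes, lists and tests were chosen with earlier results of these data known. All 10 members are named, and of each further list of the pathway the 2 called genes with the highest and the 2 with the lowest fold change. Of the assembly list, Eipr1 is in the table under its other symbol Tssc1, and Ccdc186 was not matched. Alternatives were other pseudocounts, filters, scalings and variance models, corrections for length and GC content, the replicate number as a block and leaving out each library.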

Additional observations from a re-analysis of the deposited data

Results flagged for a closer look

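Within a group, a library was set apart where its gap to the nearest other library exceeded the 95 percent limit for a single outlying value. Chance sets apart about 1 in 20 groups, and here 14 of the 62 gene and ratio groups examined were, 12 of them through whole midbrain library 2. That library was high for Chga (126 FPKM), Scg2 (214), Pcsk1n (124), Cpe (1140.3), Vgf (26.8), Qpctl (8.38), Baiap3 (10.4) and Sst (393). It was low for Cpd (12.8 FPKM) and Dmxl2 (24.8). Its log2 ratio of Pcsk1n to Pcsk1 was 3.88 and that of Chgb to Chga 0.0675. Whole midbrain library 3 stood apart for Pcsk2, at 25.4 FPKM, and for the log2 ratio of Pcsk1 to Pcsk2, at -1.88, and was also the lowest of its group for Pcsk1, at 6.19 FPKM. What sets these libraries apart was not tested.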

How the results depend on the processing

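Chga, Chgb, Vgf, Scg3 and Cpe were called lower under all 13 alternatives and without any 1 library. TPM gave 2069 genes called higher and 7669 lower in place of 5014 and 4717, and a minimum mean of 5 FPKM gave 2493 lower. Of the 10 members, 0 were called higher as TPM and 1 under quantile normalization, in place of 2. With 1 library left out, 4699 to 5654 genes were called higher and 4445 to 4974 lower, and 2 to 3 of the members higher and 6 lower. Scg2 turned to -0.75 under quantile normalization, -0.20 under upper-quartile scaling, -0.66 as TPM, and -0.17 and -0.09 after correction for length and for length and GC content. Scg5 turned to 0.02 under median centring, Pcsk1 to -0.24 and Qpctl to -0.16 as TPM, and the ratio of Scg5 to Pcsk2 to -0.34 after length correction. Scg5 was called lower under quantile normalization (-0.78), as TPM (-0.75) and under upper-quartile scaling (-0.29, limma adjusted p = 0.0032). It was also called lower after correction for length (-0.45) and for length and GC content (-0.36, limma adjusted p = 0.001). The causes were not tested, except that TPM divides by sums that differ between the groups.

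The labels do not say whether replicate numbers pair the libraries. Same-numbered libraries had deviations from their group means that correlated at -0.039, -0.05, 0.007 and 0.019. Of the dopaminergic libraries, 0 of 4 correlated best with its own number. These correlations cannot show whether such libraries share animals or a preparation, since other spread among libraries may hide it. With the replicate block, 4554 genes were called higher and 4355 lower, the members' calls were the same, and those of Qpctl (0.39, limma adjusted p = 0.061) and Pcsk4 (0.37, 0.068) were lost. Under that block the ratios of Pcsk1 to Pcsk2 and of Scg5 to Pcsk2 differed by 0.73 and 0.24 (adjusted p = 0.25 each, exact permutation within pairs, which with 4 pairs cannot reach 0.05). With 1 library left out these ratios differed by 0.63 to 0.77 and 0.22 to 0.29. Pcsk1n to Pcsk1 then ranged from 0.68 to 1.12 and Chgb to Chga from -0.38 to -0.01. Without whole midbrain library 2 these last 2 passed, at 1.12 and -0.38. Counting error, estimated from depth, was at most 4.9 percent for any member in any library. That figure takes each estimated read as independent. Error from the library input of 2.5 ng is not in it and was not tested.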

Other observations

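For each gene the nearest pattern over the 9 libraries was sought among tested genes, leaving out clone, model and small RNA symbols, as the Euclidean distance between log2(FPKM + 1) values centred on each gene's mean. For Cpe the nearest of all was Chga, at a distance of 0.559, and both are high in whole midbrain library 2. The reverse did not hold, since for Chga, Cpe ranked 10th, behind Slc39a2 at 0.319. For Scg3, Chgb ranked 7th at 0.266, behind Lrrn1 at 0.193, and for Chgb, Scg3 ranked 8th, behind Apold1 at 0.158. For Scg2, Scg5, Pcsk1, Pcsk2 and Pcsk1n the nearest other gene of the set ranked 306th or lower. These distances are a description of 9 libraries in 2 groups, with no test.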
